A study of Homo sapiens with 15 samples.

Results

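DNA replication genes encode the machinery that copies the genome in S phase. Here 37 of them were followed across 2 human cell lines described as senescent, with and without a short hairpin RNA labelled against THBD. The members are a list of symbols, set with earlier results of these data known: the 6 subunits of the MCM2-7 helicase, 4 licensing factors, 6 helicase activation factors, 5 polymerase or primase subunits, 4 clamp and clamp loader subunits, 3 genes of Okazaki fragment maturation and exonuclease work, 4 enzymes of nucleotide synthesis, and 5 genes of E2F activity and S-phase control. All 37 were found in both count tables, among 59428 genes listed for IMR90 and 59412 genes listed for Huh7.

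Before S phase, the origin recognition complex, CDC6 and CDT1 load the MCM2-7 hexamer on DNA, which is called licensing. CDC45 and the GINS complex then turn it into the active helicase, primase and the polymerases start and extend the new strands, and PCNA, a sliding clamp loaded by RFC, holds the polymerases in place. Most of these genes are targets of the E2F transcription factors, which RB family proteins hold back until cyclin D with CDK4 or CDK6 phosphorylates RB, and stable silencing of E2F targets is a known feature of senescent cells.

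RNA was sequenced from cells labelled as depleted of THBD, which encodes the thrombin receptor thrombomodulin, with the question of its need in senescence. Huh7, a hepatocyte-derived carcinoma line made senescent with the CDK4 and CDK6 inhibitor palbociclib, gave 3 libraries infected with shTHBD and 3 libraries of the non-targeting control. IMR90, a lung fibroblast line made senescent with the HRAS G12V oncogene, gave 3 libraries labelled shTHBD set 1, 3 libraries labelled shTHBD set 2 and 3 libraries of the non-targeting hairpin control. All 15 libraries are therefore described as senescent and none as proliferating, and the meaning of the set number is not given in the labels. Whether the cells had stopped dividing was not measured. The protocols mention replicative senescence by passaging of IMR90 too, without naming the libraries it concerns, and 1 set 2 library (replicate 3) has a description that names Huh7 while its line label is IMR-90.

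Library totals were 18256773 to 21509229 gene counts for IMR90 and 19328182 to 25236178 for Huh7, with the 3 Huh7 shTHBD libraries above the 3 controls. Levels are CPM, a gene's deposited count scaled to the library total, and changes are log2 fold changes ± an approximate SE from edgeR's quasi-likelihood test, called at an adjusted p under 0.05 over all genes tested. Nothing in the labels says that replicates were separate cultures, so each p-value speaks of the spread among these libraries, which may be technical. THBD itself had 719, 732 and 763 counts in the libraries labelled set 1. It had 199, 220 and 209 counts in set 2 and 315, 351 and 430 counts in the IMR90 control. The libraries labelled set 1 therefore stood above the control, against their label (log2 fold change 1.09 ± 0.076), and set 2 stood below it (−0.81 ± 0.090). In Huh7, THBD had 0, 0 and 0 counts in the shTHBD libraries and 0, 0 and 6 in the control, too few to measure a fall. Groups are named by their labels throughout. All 9 hepatocyte markers looked at stood at 10 CPM or more in both Huh7 groups, and all 9 fibroblast markers did so in the 3 IMR90 groups.

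In Huh7, the replication genes were lower in the shTHBD libraries as a whole group. All 37 passed the filter on low counts and all 37 fell, 30 of them at least 2-fold, while none rose. Of all 17474 genes tested, 53.1% were called, 27.3% as lower and 25.9% as higher, and 8.37% were lower and 5.27% higher by at least 2-fold. The median log2 fold change of the members was −1.65, against 0.00 over all genes tested, with a range from −0.38 for MCM6 to −4.27 for E2F2. In each of the 37 genes the highest shTHBD library stood below the lowest control library, a pattern that 30% of all genes tested showed. Adjusted p-values ran from 1.77e-20 to 0.0277 by edgeR. The summed level of the 37 genes was 519 ± 19.6 CPM in the shTHBD libraries and 1275 ± 12.7 CPM in the control libraries (SD, n = 3 each). In bulk RNA, fewer cells in S phase and less of these transcripts per cell cannot be told apart.

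**Figure D1:**
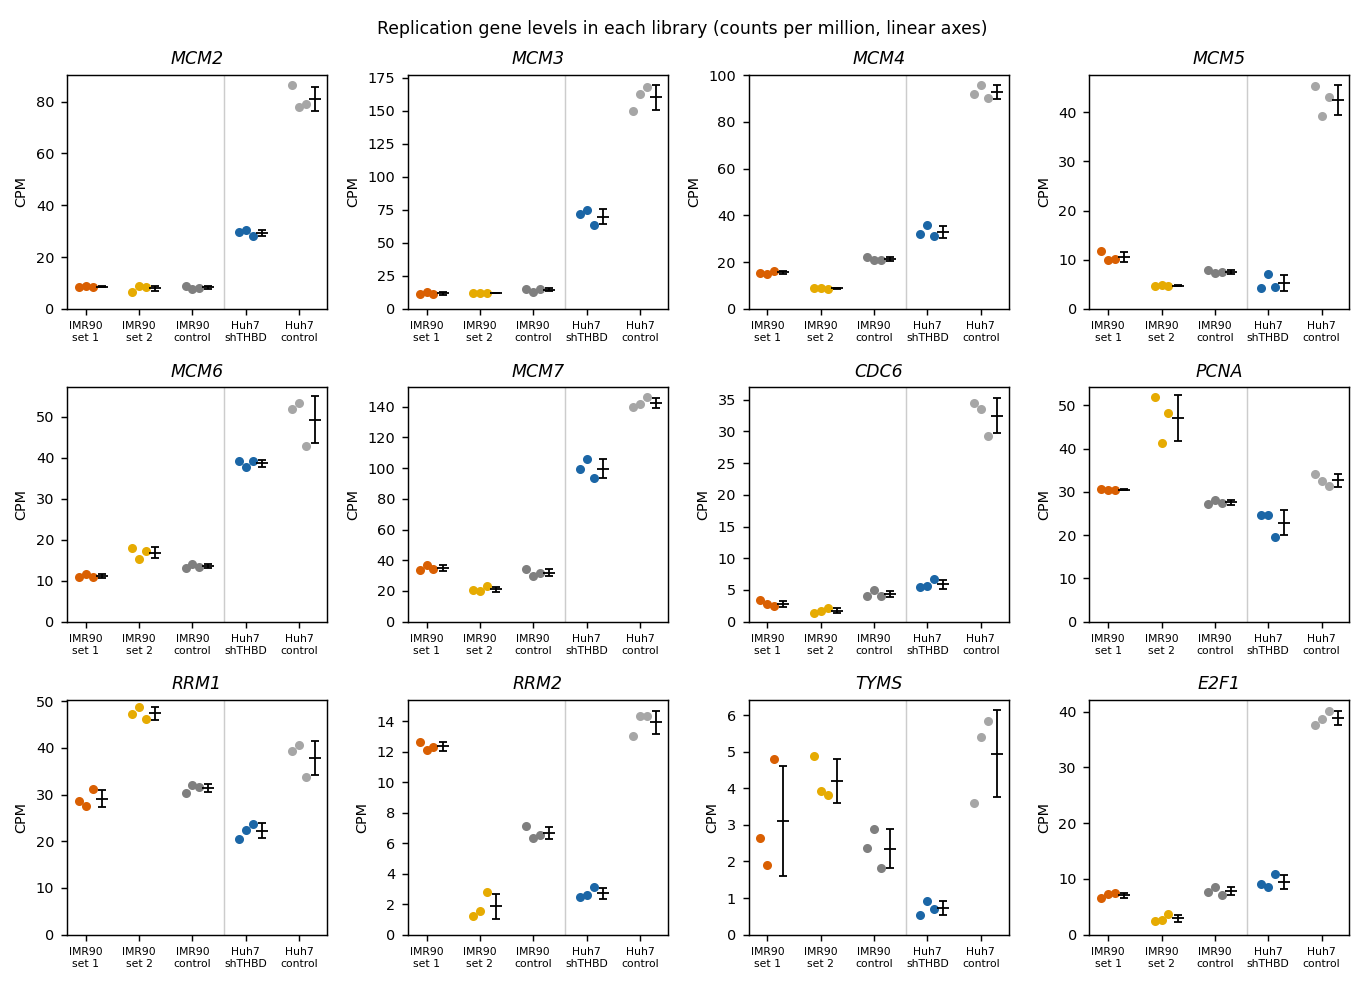
Levels of the 6 MCM2-7 subunits and 6 other replication genes in each of the 15 libraries, in CPM on linear axes; each point is a library, and the bar beside each group is the mean ± SD of 3 libraries. The Huh7 shTHBD libraries lie below the Huh7 control libraries in every panel, while in IMR90 the order of the 3 groups differs from gene to gene.

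E2F promoters were looked at because the members fell together in Huh7 and because promoter sequence did not enter the rule that chose them, although many are textbook E2F targets. The RefSeq promoter table (GRCh38.p14, 250 bases before to 50 bases after each annotated start) held 34 of the 37 members, and MCM4, MCM5 and GINS4 were not in it. The words searched were TTTGGCGC, TTTGCCGC, TTTCGCGC and TTTCCCGC, on both strands. At least 1 of them was present in 22 of the 34 members (64.7%), against 3.99% of 27305 genes in the table. The members held 30 words in all, 23 of them centred between 100 bases before and 50 bases after the start, and 6 members held 2 or more. Overlapping words of opposite strands, as in MCM2 and MCM6, were counted separately, and the 2 words of UHRF1 lie at different annotated starts. The 4 promoters shown are those of E2F1 and CDC6, which fell over 4-fold in Huh7, and of MCM6 and PCNA, the members with the smallest falls; each reads 5′ to 3′ on the gene's strand, with E2F words of either strand in capitals.
E2F1 (chr20:33686336-33686635, minus strand, GRCh38.p14): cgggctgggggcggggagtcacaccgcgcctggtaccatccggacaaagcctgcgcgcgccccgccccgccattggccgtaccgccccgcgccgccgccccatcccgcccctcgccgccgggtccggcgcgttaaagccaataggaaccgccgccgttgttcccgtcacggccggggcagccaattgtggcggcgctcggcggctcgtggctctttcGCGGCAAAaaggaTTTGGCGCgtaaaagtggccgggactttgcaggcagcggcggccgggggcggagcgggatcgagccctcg
CDC6 (chr17:40287629-40287928, plus strand, GRCh38.p14): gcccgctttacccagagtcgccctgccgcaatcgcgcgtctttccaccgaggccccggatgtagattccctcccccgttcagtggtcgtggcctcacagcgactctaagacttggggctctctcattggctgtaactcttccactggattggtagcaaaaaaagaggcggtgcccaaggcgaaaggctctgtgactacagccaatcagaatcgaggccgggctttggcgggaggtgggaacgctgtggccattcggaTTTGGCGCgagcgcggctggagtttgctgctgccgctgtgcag
MCM6 (chr2:135876394-135876693, minus strand, GRCh38.p14): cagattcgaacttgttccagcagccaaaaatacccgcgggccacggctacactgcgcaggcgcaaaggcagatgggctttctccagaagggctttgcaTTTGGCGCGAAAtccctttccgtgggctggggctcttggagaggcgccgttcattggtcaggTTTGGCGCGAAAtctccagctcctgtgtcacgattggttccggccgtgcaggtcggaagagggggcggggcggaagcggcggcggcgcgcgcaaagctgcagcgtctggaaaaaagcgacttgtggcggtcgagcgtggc
PCNA (chr20:5126573-5126872, minus strand, GRCh38.p14): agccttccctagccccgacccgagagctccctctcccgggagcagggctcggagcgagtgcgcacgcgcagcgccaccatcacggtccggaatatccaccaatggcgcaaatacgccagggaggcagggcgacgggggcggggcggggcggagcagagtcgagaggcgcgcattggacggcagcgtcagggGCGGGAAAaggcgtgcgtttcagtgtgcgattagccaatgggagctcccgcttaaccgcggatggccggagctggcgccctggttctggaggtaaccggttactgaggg

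The E2F1 promoter held 1 word on each strand, centred 29 and 16 bases before the start, in reverse GCGGCAAA and forward TTTGGCGC. The CDC6 promoter held the forward word TTTGGCGC just after the start. In MCM6 the run TTTGGCGCGAAA occurred 2 times, each time as a forward TTTGGCGC that overlaps a reverse TTTCGCGC, and the PCNA promoter held 1 reverse word, GCGGGAAA. In Huh7, the members with a word had a median log2 fold change of −1.64 (n = 22) and those in the table without one −1.84 (n = 12). CCAAT, in either orientation, was in 22 of 34 member promoters (64.7%, against 39.7% of all genes). It was in 58.6% of the other replication, 45.5% of the E2F regulation and 37.5% of the nucleotide supply promoters, and in 82.4% of a mitosis list. The CHR words TTTGAA and TTTAAA, which mark many mitotic promoters, were in 5 of 34 members (14.7%, against 27.9% of all genes). In the mitosis list, 13 of 17 promoters held one (76.5%) and 2 of those 17 held an E2F word (11.8%). These matches describe letters in a window and are not measured binding.

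**Figure D2:**
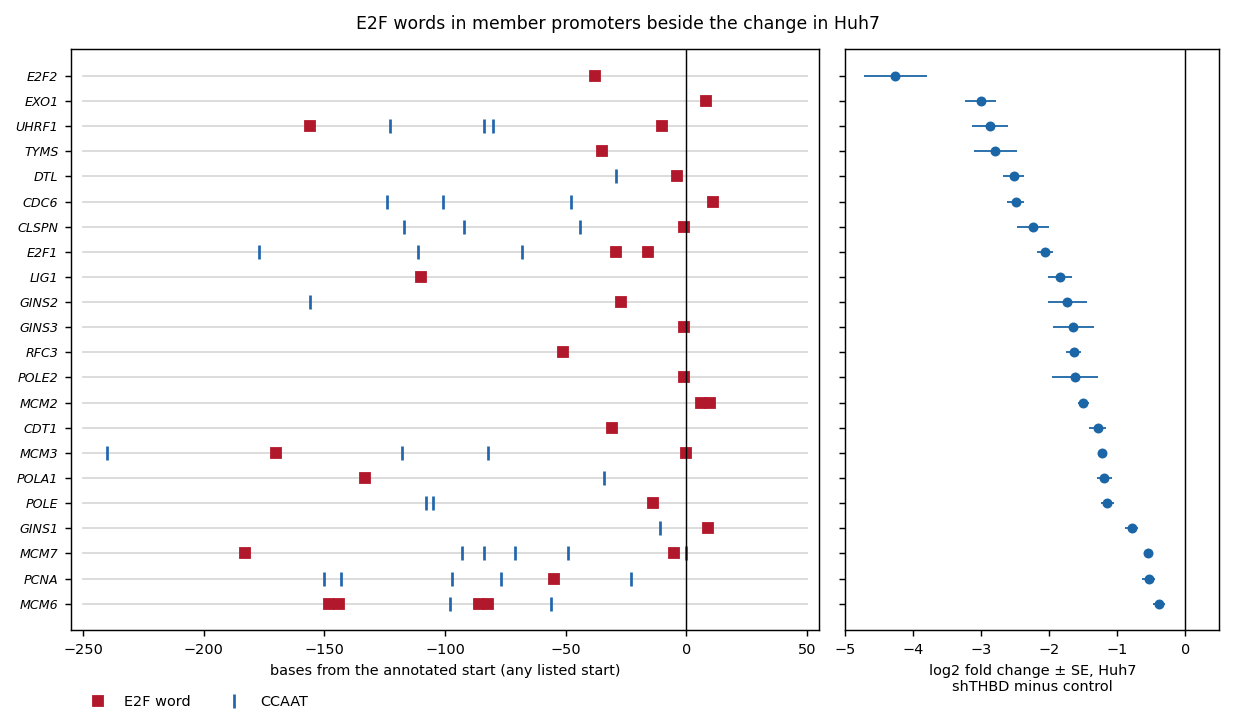
Left, distance in bases of E2F words (squares) and CCAAT (ticks) from the annotated start in the 22 members with an E2F word, ordered by their change in Huh7; right, log2 fold change ± SE of shTHBD over control in Huh7. Words near the start are found both in members with large falls, such as E2F2, and in members with small falls, such as PCNA and MCM6.

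Licensing factors fell in Huh7 without exception, all 4 of them at least 2-fold. ORC6, a subunit of the origin recognition complex, had 7.05, 8.24 and 6.85 CPM in the shTHBD libraries, against 44.0, 46.8 and 49.6 CPM in the control libraries (log2 fold change −2.69 ± 0.11, adjusted p = 2.85e-20 by edgeR). ORC1, its large ATP-binding subunit, had 2.45, 1.11 and 1.29 CPM in the shTHBD libraries, against 8.13, 6.84 and 7.55 CPM in the control libraries (−2.24 ± 0.25). CDC6, the ATPase that helps to load MCM2-7, had 5.39, 5.55 and 6.72 CPM in the shTHBD libraries, against 34.5, 33.6 and 29.3 CPM in the control libraries (−2.49 ± 0.13, adjusted p = 1.67e-17 by edgeR). CDT1, its partner in loading, had 8.30, 10.501 and 8.72 CPM in the shTHBD libraries, against 21.6, 20.7 and 23.9 CPM in the control libraries (−1.29 ± 0.12). The libraries of the 2 groups were far apart in all 4 genes, with the smallest ratio of lowest control to highest shTHBD library in CDT1.

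The 6 subunits of the MCM2-7 helicase fell unequally in Huh7. MCM5 had 4.23, 7.13 and 4.36 CPM in the shTHBD libraries, against 45.3, 39.2 and 43.1 CPM in the control libraries (−3.04 ± 0.14, adjusted p = 7.04e-19 by edgeR), the second largest fall of the 37 members. MCM4 had 31.9, 35.8 and 31.1 CPM in the shTHBD libraries, against 91.9, 95.9 and 90.2 CPM in the control libraries (−1.52 ± 0.076). MCM2 had 29.6, 30.2 and 28.0 CPM in the shTHBD libraries, against 86.4, 77.8 and 79.0 CPM in the control libraries (−1.50 ± 0.079). MCM3, the most abundant member per kilobase in the Huh7 control, had 71.5, 74.5 and 63.3 CPM in the shTHBD libraries, against 149.5, 163 and 168 CPM in the control libraries (−1.23 ± 0.066). MCM7, whose gene also hosts a microRNA cluster, had 99.3, 106 and 93.6 CPM in the shTHBD libraries, against 139.5, 142 and 146 CPM in the control libraries (−0.55 ± 0.062). MCM6 had 39.0, 37.6 and 39.1 CPM in the shTHBD libraries, against 51.7, 53.2 and 42.8 CPM in the control libraries (−0.38 ± 0.088, adjusted p = 0.000425 by edgeR), the smallest fall of the 37. The protein hexamer holds 1 copy of each subunit, while the transcripts fell by 0.38 to 3.04 on the log2 scale.

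As a share of the summed MCM2-7 level per kilobase of exon, MCM5 was 1.14% ± 0.301 in the Huh7 shTHBD libraries and 4.70% ± 0.383 in the control (SD, n = 3 each). MCM4 was 7.51% ± 0.258 in the shTHBD libraries and 10.7% ± 0.318 in the control, and MCM2 was 9.89% ± 0.179 with shTHBD and 13.8% ± 0.951 in the control. MCM3 was 30.4% ± 0.945 in the shTHBD libraries and 35.2% ± 1.72 in the control. The share was higher in the shTHBD libraries for MCM6, at 14.9% ± 1.13 against 9.56% ± 1.12, and for MCM7, at 36.1% ± 0.291 against 26.1% ± 0.455. A share compares subunits by the exon length in the table, which need not be that of the expressed transcript, and a higher share here goes with a lower level of the same subunit. MCM5 over MCM6, as a ratio of CPM per kilobase, was 0.0776 ± 0.0262 in the shTHBD libraries and 0.496 ± 0.0767 in the control.

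**Figure D3:**
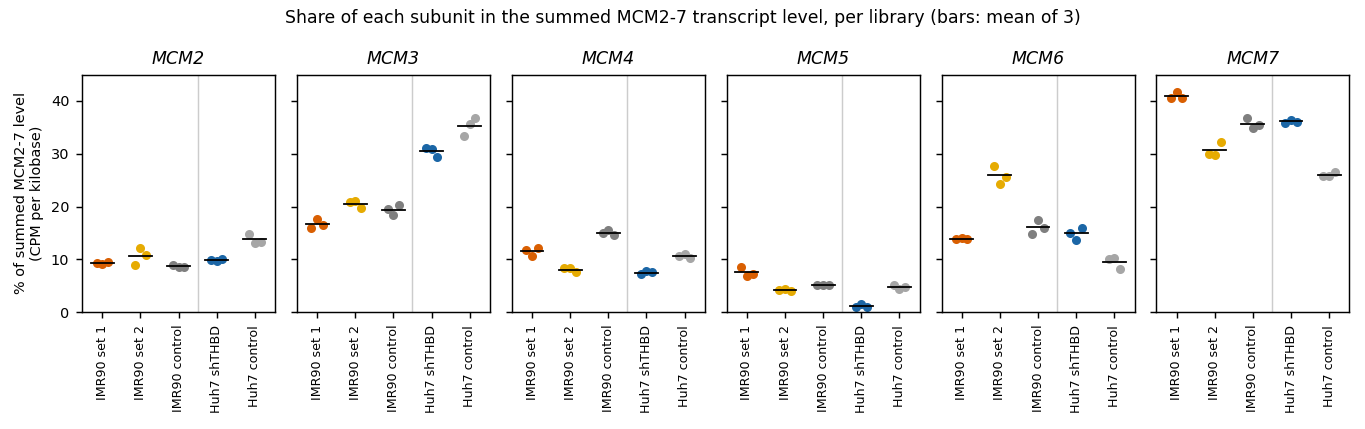
Percent of the summed MCM2-7 level (CPM per kilobase of exon) held by each subunit in each of the 15 libraries; points are libraries and bars are means of 3. In Huh7 the share of MCM5 is lower and that of MCM6 and MCM7 higher with shTHBD, and in IMR90 the share of MCM6 is highest in set 2.

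Factors that activate the helicase fell as well, 5 of 6 at least 2-fold. GINS4 had 7.80, 6.86 and 7.70 CPM in the shTHBD libraries, against 46.7, 46.9 and 49.5 CPM in the control libraries (−2.71 ± 0.10, adjusted p = 1.77e-20 by edgeR). GINS2 had 1.37, 1.07 and 1.20 CPM in the shTHBD libraries, against 3.61, 4.40 and 3.93 CPM in the control libraries (−1.74 ± 0.29). GINS3 had 2.12, 1.51 and 0.667 CPM in the shTHBD libraries, against 4.68, 4.15 and 4.40 CPM in the control libraries (−1.65 ± 0.30). GINS1 was the exception among the 4 subunits of the GINS complex, with 22.9, 26.9 and 22.4 CPM in the shTHBD libraries, against 39.1, 42.4 and 40.9 CPM in the control libraries (−0.79 ± 0.092). CDC45, which joins GINS and MCM2-7 in the active helicase, had 1.70, 1.27 and 3.38 CPM in the shTHBD libraries, against 9.61, 9.34 and 10.2 CPM in the control libraries (−2.24 ± 0.24). MCM10, needed to start unwinding, had 2.03, 1.59 and 1.02 CPM in the shTHBD libraries, against 8.18, 10.54 and 9.36 CPM in the control libraries (−2.62 ± 0.22).

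Among polymerase and primase subunits 4 of 5 fell at least 2-fold in Huh7, with a median log2 fold change of −1.19, against −2.37 for the licensing factors. POLE2, the second subunit of leading strand polymerase epsilon, had 0.996, 0.713 and 1.38 CPM in the shTHBD libraries, against 2.69, 3.45 and 3.16 CPM in the control libraries (−1.62 ± 0.34). POLE, its catalytic subunit, had 24.2, 19.02 and 22.3 CPM in the shTHBD libraries, against 46.6, 49.4 and 46.5 CPM in the control libraries (−1.15 ± 0.095). POLD1, the catalytic subunit of polymerase delta, had 12.6, 18.3 and 14.7 CPM in the shTHBD libraries, against 37.5, 36.8 and 44.4 CPM in the control libraries (−1.41 ± 0.11). POLA1, the catalytic subunit of polymerase alpha, had 15.1, 13.6 and 17.6 CPM in the shTHBD libraries, against 36.0, 35.2 and 32.3 CPM in the control libraries (−1.19 ± 0.11). PRIM1, the primase that makes the RNA primers, had 1.91, 2.14 and 1.69 CPM in the shTHBD libraries, against 3.35, 3.95 and 2.22 CPM in the control libraries, and its call (−0.76 ± 0.29, adjusted p = 0.0277 by edgeR) was lost when control replicate 1, control replicate 2 or shTHBD replicate 1 was left out, at adjusted p-values of 0.0899, 0.173 and 0.0561.

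PCNA fell less than nearly all other members. It had 24.6, 24.6 and 19.6 CPM in the shTHBD libraries, against 34.2, 32.5 and 31.2 CPM in the control libraries (−0.54 ± 0.099, adjusted p = 2.13e-05 by edgeR). Of the clamp loader subunits, RFC3 had 9.21, 9.55 and 10.3 CPM in the shTHBD libraries, against 28.4, 30.3 and 30.4 CPM in the control libraries (−1.64 ± 0.11). RFC4 had 11.9, 9.55 and 8.85 CPM in the shTHBD libraries, against 19.9, 24.7 and 21.0 CPM in the control libraries (−1.14 ± 0.13). RFC5 had 6.60, 9.23 and 8.45 CPM in the shTHBD libraries, against 13.98, 14.8 and 11.8 CPM in the control libraries (−0.77 ± 0.15). FEN1, the nuclease that trims Okazaki fragments, had 20.1, 22.7 and 16.8 CPM in the shTHBD libraries, against 50.2, 55.7 and 52.5 CPM in the control libraries (−1.44 ± 0.095). LIG1, the ligase that joins them, had 3.49, 5.75 and 3.07 CPM in the shTHBD libraries, against 14.6, 13.99 and 14.8 CPM in the control libraries (−1.84 ± 0.18). EXO1, an exonuclease of repair and replication, had 1.33, 0.911 and 1.56 CPM in the shTHBD libraries, against 11.03, 8.64 and 10.2 CPM in the control libraries (−3.01 ± 0.23), the third largest fall of the 37.

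Enzymes of nucleotide synthesis fell in Huh7 by very different amounts. TYMS, thymidylate synthase, had 0.539, 0.911 and 0.712 CPM in the shTHBD libraries, against 3.61, 5.39 and 5.85 CPM in the control libraries (−2.79 ± 0.31, adjusted p = 3.32e-09 by edgeR). In the tables, 39.9% of the exon bases of TYMS overlap ENOSF1 on the opposite strand, and the counting is not stated to use strand, so its level is uncertain; ENOSF1 fell by 0.65 ± 0.15 in the same comparison. RRM2, the S-phase subunit of ribonucleotide reductase, had 2.45, 2.58 and 3.11 CPM in the shTHBD libraries, against 13.1, 14.4 and 14.4 CPM in the control libraries (−2.39 ± 0.17). RRM1, the large subunit of the same enzyme, had 20.6, 22.4 and 23.8 CPM in the shTHBD libraries, against 39.3, 40.7 and 33.8 CPM in the control libraries (−0.80 ± 0.099). The ratio of RRM2 to RRM1 in CPM per kilobase was therefore 0.0563 ± 0.00387 in the shTHBD libraries and 0.171 ± 0.0226 in the control (SD, n = 3 each). TK1, the thymidine kinase of S phase, had 9.34, 8.04 and 11.3 CPM in the shTHBD libraries, against 47.1, 47.7 and 47.7 CPM in the control libraries (−2.34 ± 0.11).

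The 5 genes of E2F activity and S-phase control all fell at least 4-fold. E2F1, an activating E2F, had 9.09, 8.48 and 10.9 CPM in the shTHBD libraries, against 37.6, 38.7 and 40.1 CPM in the control libraries (−2.06 ± 0.11, adjusted p = 7.68e-17 by edgeR). E2F2, another activator, had 2, 3 and 8 counts in the shTHBD libraries, against 81, 69 and 59 counts in the control libraries, or 0.0830, 0.119 and 0.356 CPM against 4.12, 3.45 and 3.05 CPM. Its log2 fold change of −4.27 ± 0.46 rests on these few counts. UHRF1, which links replication to maintenance of DNA methylation, had 0.705, 1.19 and 0.890 CPM in the shTHBD libraries, against 5.69, 6.44 and 8.07 CPM in the control libraries (−2.87 ± 0.27). DTL, the adaptor of the ubiquitin ligase that destroys CDT1 in S phase, had 3.82, 3.57 and 2.67 CPM in the shTHBD libraries, against 19.7, 18.7 and 18.4 CPM in the control libraries (−2.52 ± 0.15). CLSPN, the checkpoint mediator claspin, had 1.66, 1.39 and 1.87 CPM in the shTHBD libraries, against 9.55, 6.54 and 6.67 CPM in the control libraries (−2.24 ± 0.24).

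**Figure D4:**
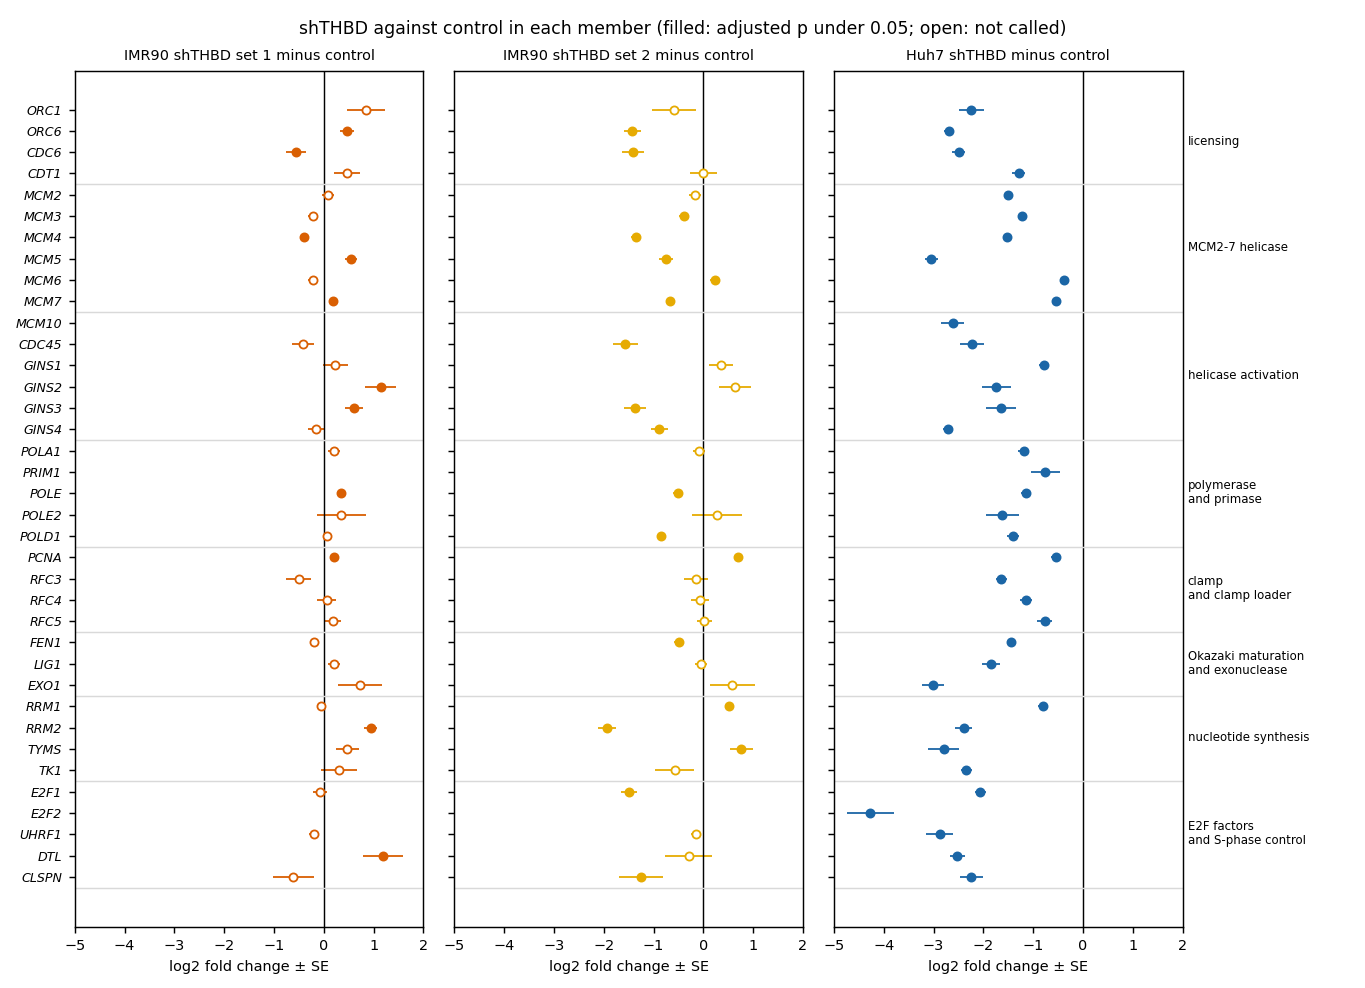
Log2 fold change ± SE of each member for shTHBD over control, for the IMR90 libraries labelled set 1, IMR90 set 2 and Huh7, ordered by role; filled points have an adjusted p under 0.05 by edgeR, and members with no point were not tested. All Huh7 points lie left of 0, whereas IMR90 points lie on both sides, and both IMR90 panels use the same 3 control libraries.

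Other cell cycle genes of Huh7 were counted from lists written beside the members. Of 37 tested genes of other replication factors, 24 fell and 2 rose, with a median of −0.72. These counts are 64.9% and 5.41% of the list, against 27.3% lower and 25.9% higher of all genes tested. TICRR, needed for origin firing, fell by 2.56 ± 0.24, the histone chaperone gene ASF1B fell by 2.499 ± 0.13, and CHTF18 and DSCC1 of the alternative clamp loader fell by 1.89 ± 0.089 and 1.76 ± 0.31. The 2 that rose, named after their values were seen, were GMNN, the inhibitor of CDT1, at 0.24 ± 0.091 and ORC4 at 0.30 ± 0.085. Of 22 mitosis genes 21 fell, all at least 2-fold, with a median of −2.04, including MKI67 at −3.27 ± 0.17, AURKB at −3.03 ± 0.18, MYBL2 at −2.82 ± 0.071 and BIRC5 at −2.65 ± 0.15. The 21 falls are 95.5% of the list, while 27.3% of all genes fell, 8.37% by at least 2-fold. The mitosis gene that rose, likewise named after its value was seen, was NUSAP1 (1.41 ± 0.44). The summed level of the mitosis list was 195 ± 3.25 CPM in the shTHBD libraries and 798 ± 15.3 CPM in the control.

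Genes of the RB and E2F circuit itself moved less uniformly in Huh7, with 4 of 14 lower, 3 higher and a median of 0.02. These counts are 28.6% lower and 21.4% higher, near the 27.3% and 25.9% of all genes. E2F7, an E2F repressor, fell by 2.46 ± 0.61, CDC25A by 1.46 ± 0.16, E2F6 by 0.60 ± 0.13 and CCNE1 by 0.39 ± 0.13. RB1 rose by 0.40 ± 0.076, TFDP2 by 0.39 ± 0.066 and E2F3 by 0.52 ± 0.081. Of 10 other nucleotide supply genes 5 fell and 2 rose, or 50% and 20%, against 27.3% and 25.9% of all genes. DTYMK, thymidylate kinase, fell by 1.13 ± 0.17, CTPS1 by 0.74 ± 0.11, SAMHD1 by 0.63 ± 0.094 and CMPK1 by 0.31 ± 0.063. TK2, the mitochondrial thymidine kinase, rose by 0.28 ± 0.11, and RRM2B, the p53-inducible partner of RRM1, rose by 0.58 ± 0.090. Cell type markers also moved in Huh7: the 9 hepatocyte markers summed to 4952 to 5134 CPM in the shTHBD libraries and 7092 to 7341 CPM in the control, with 8 lower and 1 (FGB) higher. Fibroblast markers summed to 1681 to 1744 CPM in the shTHBD libraries and 1059 to 1107 CPM in the control, with 5 of 7 tested higher. The 8 lower hepatocyte markers are 88.9% of their list, against 27.3% of all genes. The 5 higher fibroblast markers are 71.4% of those tested, against 25.9% of all genes. The 3 epithelial markers summed to 803 to 813 CPM in the shTHBD libraries and 1117 to 1203 CPM in the control. Only 1 of the 3 was called lower (33.3%, against 27.3% of all genes), and their median log2 fold change was −0.05. CDH1 was the highest of them in both groups, with a mean of 337 CPM in the shTHBD libraries and 683 CPM in the control. Mitochondrial genes took 8.04%, 7.83% and 9.94% of counts in the shTHBD libraries and 8.35%, 7.79% and 7.26% in the control, so that shTHBD replicate 3 alone lay above the control range. That library also stood apart in its counts, with a chi-square per degree of freedom of 9.91 and 12.4 against shTHBD replicates 1 and 2, which gave 4.32 between them. Without it, all 37 members were still called lower in Huh7. The part of these shifts in the result was not tested.

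In IMR90 the replication genes moved in both directions, from lower levels than in Huh7. With the non-targeting control, 36 of 37 members had CPM values in all 3 Huh7 libraries above all 3 IMR90 libraries, and UHRF1 was the exception, with a lower mean in Huh7; line, inducer and count table cannot be told apart in this. Summed over the 37 genes, the level was 302 ± 4.28 CPM in the libraries labelled set 1, 271 ± 7.90 CPM in set 2 and 296 ± 6.07 CPM in the control (SD, n = 3 each). The filter left 34 members for testing, without MCM10, PRIM1 and E2F2. MCM10 had 12, 6 and 4 counts in the libraries labelled set 1, 2, 1 and 7 counts in set 2 and 2, 5 and 1 in the control. PRIM1 had 4, 2 and 0 counts in the libraries labelled set 1, 5, 9 and 4 counts in set 2 and 0, 4 and 3 in the control. E2F2 had 0 counts in all 3 libraries labelled set 1 and all 3 control libraries, and 1, 2 and 1 in set 2. Counts of 3 or fewer are at the floor of detection, which was 0.139 to 0.164 CPM in IMR90.

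With IMR90 set 2 over control, members moved both ways: 15 fell and 4 rose of the 34 tested. Of 15411 genes tested, 67.3% were called in this comparison, 34.1% as lower and 33.2% as higher, so a call in itself was common. The members' median was −0.34, against 0.01 over all genes tested, and 8 members fell at least 2-fold, as 9.79% of all genes did, while none rose by as much, against 7.96% of all genes. On TMM-scaled CPM, the libraries of set 2 lay wholly below the control in 17 members (34.8% of all genes) and wholly above it in 4 (34.7% of all genes). The adjusted p-values of the 19 called members ran from 3.39e-21 to 0.0259 by edgeR. The libraries labelled set 1 were tested against the same 3 controls, so the 2 comparisons are not independent. For the libraries labelled set 1, 9 of 34 members rose and 2 fell, where 53.8% of all genes were called, 27.3% as higher and 26.5% as lower. Their median was 0.19, against −0.00 over all genes tested, and 2 members rose at least 2-fold, as 3.79% of all genes did, while none fell by as much, against 4.33% of all genes. On the same scale, these libraries lay wholly above the control in 12 members (29.9% of all genes) and wholly below it in 7 (29.6% of all genes).

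Licensing factors stood lower in set 2 than in the control where they were called, and split in the libraries labelled set 1. ORC6 had 7.45, 8.84 and 7.83 CPM in the libraries labelled set 1, 2.42, 1.83 and 2.89 CPM in set 2 and 5.50, 6.69 and 5.95 CPM in the control. The libraries labelled set 1 lay above and set 2 below every control library (0.47 ± 0.14 and −1.43 ± 0.17). CDC6 had 3.34, 2.80 and 2.40 CPM in the libraries labelled set 1, 1.37, 1.62 and 2.18 CPM in set 2 and 3.98, 4.92 and 4.09 CPM in the control. It lay below every control library in both (−0.55 ± 0.20 and −1.41 ± 0.22). Its call in the libraries labelled set 1 (adjusted p = 0.0165 by edgeR) was lost without control replicate 2 or set 1 replicate 3, at adjusted p-values of 0.0946 and 0.0953. ORC1 had 1.42, 1.15 and 1.12 CPM in the libraries labelled set 1, 0.579, 0.575 and 0.327 CPM in set 2 and 0.576, 0.749 and 0.790 CPM in the control. CDT1 had 3.72, 2.70 and 2.59 CPM in the libraries labelled set 1, 1.63, 1.99 and 3.54 CPM in set 2 and 2.095, 3.48 and 1.26 CPM in the control. Neither was called in either comparison.

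The MCM2-7 subunits diverged within IMR90. MCM4 had 15.5, 15.1 and 16.2 CPM in the libraries labelled set 1, 9.01, 8.83 and 8.60 CPM in set 2 and 22.2, 21.1 and 20.7 CPM in the control. It was lower in both (−0.39 ± 0.087 and −1.36 ± 0.095, adjusted p = 8.14e-05 and 3.39e-21 by edgeR). MCM5 had 11.7, 9.99 and 10.1 CPM in the libraries labelled set 1, 4.69, 4.76 and 4.74 CPM in set 2 and 7.86, 7.23 and 7.44 CPM in the control. It was higher in the libraries labelled set 1 (0.55 ± 0.12) and lower in set 2 (−0.75 ± 0.14). MCM7 had 33.6, 37.02 and 34.0 CPM in the libraries labelled set 1, 20.4, 19.8 and 23.1 CPM in set 2 and 34.5, 29.8 and 31.4 CPM in the control, and on this scale 2 libraries labelled set 1 lay below the highest control. It too was called higher in the libraries labelled set 1 (0.19 ± 0.069) and lower in set 2 (−0.68 ± 0.074). The rise of MCM7 failed the test under upper-quartile or library-total scaling and without control replicate 2 or 3 or set 1 replicate 2, at adjusted p-values of 0.0554 to 0.128.

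MCM6 was higher in set 2, where MCM3, MCM4, MCM5 and MCM7 were lower. It had 10.8, 11.7 and 10.96 CPM in the libraries labelled set 1, 17.9, 15.3 and 17.3 CPM in set 2 and 13.1, 14.1 and 13.3 CPM in the control, with every set 2 library above every control library (0.23 ± 0.095, adjusted p = 0.0259 by edgeR). That call was lost in the DESeq2 test, with no filter, and without control replicate 1 or 3 or set 2 replicate 1 or 3, at adjusted p-values of 0.0508 to 0.121. MCM3 had 11.01, 13.1 and 11.5 CPM in the libraries labelled set 1, 11.9, 11.7 and 11.7 CPM in set 2 and 15.2, 13.1 and 15.02 CPM in the control. It was lower in set 2 (−0.38 ± 0.10), with an adjusted p of 0.0501 in the libraries labelled set 1 (−0.23 ± 0.10). There it passed the test under upper-quartile or library-total scaling, limma voom, the 10-count filter and 5 of the 9 fits that left out a library, at adjusted p-values of 0.0140 to 0.0499. MCM2 had 8.27, 8.74 and 8.56 CPM in the libraries labelled set 1, 6.53, 8.68 and 8.33 CPM in set 2 and 8.96, 7.81 and 8.18 CPM in the control. It was called in neither. As a share of the summed MCM2-7 level per kilobase, MCM6 was 13.9% ± 0.0463 in the libraries labelled set 1, 25.9% ± 1.73 in set 2 and 16.1% ± 1.34 in the control. MCM4 was 11.5% ± 0.779 in the libraries labelled set 1, 8.07% ± 0.444 in set 2 and 15.04% ± 0.450 in the control (SD, n = 3 each).

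PCNA and RRM1 rose in set 2. PCNA, the most abundant member per kilobase in all 3 IMR90 groups, had 30.6, 30.4 and 30.4 CPM in the libraries labelled set 1, 51.9, 41.3 and 48.1 CPM in set 2 and 27.1, 28.1 and 27.5 CPM in the control, with every set 2 library above every control library (0.69 ± 0.067, adjusted p = 6.99e-15 by edgeR). It was also called higher in the libraries labelled set 1 (0.20 ± 0.070), a call lost when libraries were scaled by their totals only (adjusted p = 0.0759). PCNA is known as a p53 target as well as an E2F target. RRM1 had 28.6, 27.6 and 31.2 CPM in the libraries labelled set 1, 47.2, 48.8 and 46.2 CPM in set 2 and 30.4, 32.1 and 31.6 CPM in the control. It was higher in set 2 (0.51 ± 0.062, adjusted p = 3.34e-11 by edgeR) and not called in the libraries labelled set 1 (−0.05 ± 0.066).

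RRM2 had the largest difference between the 2 sets among the 34 members tested. It had 12.7, 12.1 and 12.3 CPM in the libraries labelled set 1, 1.21, 1.57 and 2.78 CPM in set 2 and 7.12, 6.32 and 6.56 CPM in the control, so that the libraries labelled set 1 all lay above the control and set 2 all below it (0.94 ± 0.13 and −1.93 ± 0.18, adjusted p = 3.98e-09 and 1.29e-15 by edgeR). The ratio of RRM2 to RRM1 in CPM per kilobase was 0.197 ± 0.0119 in the libraries labelled set 1, 0.0182 ± 0.00848 in set 2 and 0.0985 ± 0.00883 in the control. TYMS had 2.63, 1.90 and 4.79 CPM in the libraries labelled set 1, 4.90, 3.92 and 3.81 CPM in set 2 and 2.36, 2.89 and 1.81 CPM in the control. It was higher in set 2 (0.76 ± 0.23, adjusted p = 0.00218 by edgeR), and 1 library labelled set 1 stood well above its replicates. Its antisense neighbour ENOSF1 fell by 0.69 ± 0.091 in set 2. TK1 had 1.21, 1.20 and 1.08 CPM in the libraries labelled set 1, 0.737, 0.679 and 0.653 CPM in set 2 and 1.15, 0.749 and 1.02 CPM in the control. It was called in neither comparison with the control.

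Helicase activation factors followed no single direction in IMR90. CDC45 had 2.52, 2.90 and 2.25 CPM in the libraries labelled set 1, 1.0007, 0.941 and 1.85 CPM in set 2 and 3.93, 3.21 and 3.49 CPM in the control. It was lower in set 2 (−1.57 ± 0.25). GINS3 had 4.71, 6.15 and 5.33 CPM in the libraries labelled set 1, 1.90, 1.15 and 1.47 CPM in set 2 and 4.09, 3.27 and 3.67 CPM in the control. It was higher in the libraries labelled set 1 (0.61 ± 0.18) and lower in set 2 (−1.37 ± 0.22). GINS4 had 4.11, 6.69 and 6.51 CPM in the libraries labelled set 1, 4.32, 4.49 and 2.72 CPM in set 2 and 8.01, 6.37 and 5.90 CPM in the control. It was lower in set 2 (−0.89 ± 0.17). GINS2, a subunit with few counts in this line, had 2.30, 2.05 and 1.81 CPM in the libraries labelled set 1, 1.58, 1.20 and 1.96 CPM in set 2 and 1.15, 0.803 and 0.930 CPM in the control, and rose in the libraries labelled set 1 (1.14 ± 0.31), while its value of 0.63 ± 0.32 in set 2 was not called. GINS1 was not called, at 0.23 ± 0.24 for the libraries labelled set 1 and 0.36 ± 0.24 for set 2.

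E2F1 was among the larger falls of set 2. It had 6.57, 7.24 and 7.43 CPM in the libraries labelled set 1, 2.48, 2.61 and 3.65 CPM in set 2 and 7.65, 8.51 and 7.16 CPM in the control, so that set 2 stood below every other IMR90 library (−1.50 ± 0.16, adjusted p = 2.73e-13 by edgeR), while the libraries labelled set 1 were not called (−0.07 ± 0.14). CLSPN had 14, 13 and 13 counts in the libraries labelled set 1, 3, 13 and 11 counts in set 2 and 22, 23 and 19 in the control, or 0.767, 0.650 and 0.636 CPM in the libraries labelled set 1, 0.158, 0.679 and 0.599 CPM in set 2 and 1.15, 1.23 and 0.883 CPM in the control. Its fall in set 2 (−1.25 ± 0.44) was not called without set 2 replicate 1 (−0.84, adjusted p = 0.109 by edgeR). DTL had 31, 29 and 22 counts in the libraries labelled set 1, 7, 14 and 10 counts in set 2 and 16, 3 and 19 in the control, or 1.70, 1.45 and 1.08 CPM in the libraries labelled set 1, 0.369, 0.732 and 0.544 CPM in set 2 and 0.838, 0.161 and 0.883 CPM in the control. Its rise in the libraries labelled set 1 (1.19 ± 0.41) was not called without control replicate 2 (0.75, adjusted p = 0.139) or set 1 replicate 1 (1.04, adjusted p = 0.0646). UHRF1 had 9.31, 12.2 and 11.01 CPM in the libraries labelled set 1, 12.01, 12.96 and 12.3 CPM in set 2 and 13.8, 13.1 and 12.1 CPM in the control. It was called in neither.

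Of the polymerase and Okazaki fragment genes, POLD1, POLE and FEN1 passed the test in IMR90, each with a change under 2-fold. POLD1 had 16.6, 17.0 and 18.1 CPM in the libraries labelled set 1, 10.53, 9.25 and 10.6 CPM in set 2 and 17.0, 16.8 and 17.6 CPM in the control. It was lower in set 2 (−0.84 ± 0.097). POLE had 15.8, 16.7 and 15.4 CPM in the libraries labelled set 1, 9.85, 8.78 and 10.45 CPM in set 2 and 13.2, 12.95 and 12.8 CPM in the control. It was higher in the libraries labelled set 1 (0.35 ± 0.096) and lower in set 2 (−0.50 ± 0.10). FEN1 had 12.5, 13.8 and 13.01 CPM in the libraries labelled set 1, 12.8, 11.3 and 10.998 CPM in set 2 and 15.9, 14.8 and 15.9 CPM in the control. It was lower in set 2 (−0.49 ± 0.098). POLA1 had 11.3, 9.44 and 9.39 CPM in the libraries labelled set 1, 8.95, 9.83 and 8.38 CPM in set 2 and 9.38, 9.37 and 8.46 CPM in the control. LIG1 had 10.1, 10.3 and 9.54 CPM in the libraries labelled set 1, 9.64, 10.4 and 7.57 CPM in set 2 and 8.22, 10.3 and 8.55 CPM in the control. Neither was called against the control. POLE2 and EXO1 stayed near or below 1 CPM in most IMR90 libraries, with POLE2 at 0.493, 0.799 and 0.440 CPM in the libraries labelled set 1, 0.948, 0.470 and 0.381 CPM in set 2 and 0.367, 0.321 and 0.697 CPM in the control. EXO1 was at 1.31, 0.699 and 0.685 CPM in the libraries labelled set 1, 0.369, 1.05 and 1.25 CPM in set 2 and 0.576, 0.535 and 0.558 CPM in the control. RFC3 had 1.10, 2.15 and 2.103 CPM in the libraries labelled set 1, 2.32, 3.03 and 2.29 CPM in set 2 and 2.93, 2.78 and 2.28 CPM in the control. RFC4 had 5.75, 3.75 and 3.42 CPM in the libraries labelled set 1, 4.69, 3.03 and 5.28 CPM in set 2 and 3.98, 4.92 and 3.95 CPM in the control. Neither loader subunit was called, nor was RFC5 (0.19 ± 0.15 for the libraries labelled set 1 and 0.02 ± 0.16 for set 2).

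A direct test of the libraries labelled set 1 against set 2 put 17 of 34 members higher in the former and 3 lower. Of all genes, 69.5% were called in this test, 33.9% as higher and 35.6% as lower. The median was 0.49, against −0.03 over all genes tested, and 8 members were at least 2-fold higher, as were 10.8% of all genes. RRM2 differed by 2.88 ± 0.16, GINS3 by 1.98 ± 0.21, ORC6 by 1.90 ± 0.17, DTL by 1.48 ± 0.42, ORC1 by 1.44 ± 0.41, E2F1 by 1.42 ± 0.16, MCM5 by 1.30 ± 0.13 and CDC45 by 1.16 ± 0.26. The 3 members lower in the libraries labelled set 1 were RRM1 (−0.56 ± 0.063), PCNA (−0.49 ± 0.066) and MCM6 (−0.45 ± 0.097). Against the shared control, 6 members (GINS3, MCM5, MCM7, ORC6, POLE and RRM2) were called higher in the libraries labelled set 1 and lower in set 2. In both sets, 2 members (CDC6 and MCM4) were called lower and 1 (PCNA) higher. The set 1 calls of MCM7, CDC6 and PCNA were lost in some alternative runs, as given above. The share of all genes with each pattern was not counted, where 53.8% were called in set 1 and 67.3% in set 2. THBD itself was above the control in the libraries labelled set 1 and below it in set 2, as given above.

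Beside the members, other replication genes of IMR90 gave 10 rises and 3 falls of 37 tested in the libraries labelled set 1, and 7 rises and 15 falls in set 2. The 10 rises are 27.0% of the list, against 27.3% of all genes, and the 15 falls in set 2 are 40.5%, against 34.1% of all genes. The 3 falls are 8.11%, against 26.5% of all genes, and the 7 rises in set 2 are 18.9%, against 33.2%. CHTF18 and RECQL4 fell in set 2 by 1.21 ± 0.13 and 1.01 ± 0.11, while DNA2, an Okazaki flap nuclease, rose by 1.00 ± 0.17. All 10 nucleotide supply genes were called in set 2, where 67.3% of all genes were called. They were 7 lower (70%) and 3 higher (30%), against 34.1% and 33.2% of all genes. RRM2B, the alternative partner of RRM1, was at 278 ± 11.2 CPM in set 2 and 101 ± 1.48 CPM in the control (1.38 ± 0.034), a rise beside the fall of RRM2. NME1 and DCK were the other rises (0.56 ± 0.058 and 0.52 ± 0.10). In the libraries labelled set 1, TK2 fell by 1.34 ± 0.091, DCK by 0.55 ± 0.11 and DUT by 0.42 ± 0.11, while CMPK1 and RRM2B rose by 0.39 ± 0.029 and 0.40 ± 0.036. These 3 falls and 2 rises are 30% and 20% of the nucleotide supply list, against 26.5% and 27.3% of all genes. Genes named here for counts of 5 or fewer were named after their values were seen.

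In the E2F regulation list, set 2 gave 6 falls and 3 rises of 13 tested. These counts are 46.2% and 23.1%, against 34.1% and 33.2% of all genes. CCNE1, cyclin E1, was at 3.06 ± 0.973 CPM in set 2 and 11.9 ± 0.602 CPM in the control (−2.05 ± 0.14), and CDC25A, the phosphatase that activates CDK2, fell by 1.93 ± 0.21. TFDP2, a dimer partner of E2F, rose by 1.15 ± 0.070, RB1 by 0.63 ± 0.049 and E2F4, a repressor E2F, by 0.58 ± 0.041. The libraries labelled set 1 gave 7 rises and no fall in this list. The 7 rises are 53.8% of those tested, while 27.3% of all genes rose and 26.5% fell. Mitosis genes were at low levels in IMR90, summing to 67.2 ± 2.35 CPM in the libraries labelled set 1, 43.8 ± 0.983 CPM in set 2 and 51.3 ± 2.45 CPM in the control. Of 18 tested, 5 rose in the libraries labelled set 1, led by BUB1 (1.48 ± 0.34), while 5 fell in set 2, led by AURKA (−1.52 ± 0.12), and CENPF rose there (1.22 ± 0.18). Each count of 5 is 27.8% of the list, against 27.3% of all genes higher in the libraries labelled set 1 and 34.1% lower in set 2. Fibroblast markers summed to 4532 to 4636 CPM in the libraries labelled set 1, 12554 to 12730 CPM in set 2 and 6345 to 6441 CPM in the control. The 9 markers did not all move the same way: 7 fell and PDGFRB rose in the libraries labelled set 1, and 6 rose while THY1, PDGFRB and FAP fell in set 2. The 7 falls are 77.8% of the list, against 26.5% of all genes. The 6 rises in set 2 are 66.7%, against 33.2% of all genes. Mitochondrial genes took 5.82% to 5.98% of counts in the libraries labelled set 1, 6.38% to 6.58% in set 2 and 5.43% to 5.48% in the control, and the part of these shifts in the members' values was not tested. Leukocyte, endothelial and epithelial marker lists each summed to 5.25 CPM or less in every IMR90 library. Of 9 hepatocyte markers, 8 were under 1 CPM in the libraries labelled set 1, 7 in set 2 and 8 in the control. The 9 summed to 132 to 142 CPM in the libraries labelled set 1, 11.5 to 13.2 CPM in set 2 and 15.9 to 17.9 CPM in the control. SERPINA1 was the highest of them in all 3 groups.

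The shTHBD effect in Huh7 was tested against that of set 2 in IMR90 in a joint fit of all 15 libraries. Of the 37 members, 31 had a lower log2 fold change in Huh7 and none a higher one. Of all 16682 genes tested, 44% were called, 21.2% as lower and 22.8% as higher. Leaving aside MCM10, PRIM1 and E2F2, which had too few counts in IMR90, 28 of 34 were lower, 21 of them by at least 2-fold on this scale (7.34% of all genes), with a median difference of −1.16. TYMS differed by −3.53 ± 0.41, MCM5 by −2.26 ± 0.21, MCM2 by −1.30 ± 0.14, PCNA by −1.20 ± 0.12 and CDC6 by −1.05 ± 0.25. MCM3 differed by −0.82 ± 0.11, MCM6 by −0.59 ± 0.13 and E2F1 by −0.54 ± 0.20 (adjusted p = 0.0278 by edgeR). The E2F1 difference was not called with limma voom or without IMR90 control replicate 3, set 2 replicate 3, Huh7 shTHBD replicate 1 or Huh7 shTHBD replicate 2, at adjusted p-values of 0.0512 to 0.223. MCM4 (−0.14 ± 0.12), MCM7 (0.16 ± 0.093), RRM2 (−0.43 ± 0.27), CDC45 (−0.64 ± 0.39), GINS3 (−0.24 ± 0.38) and CLSPN (−0.96 ± 0.50) were not called, which does not show that their effects were alike. Called lower in both set 2 and Huh7 were 15 members, while MCM6, PCNA, RRM1 and TYMS fell in Huh7 and rose in set 2. Every member fell in Huh7, so each member called in set 2 had to fall in 1 of these 2 patterns. Shares of all genes with these patterns were not counted. In set 2, 34.1% of all genes were called lower and 33.2% higher, and in Huh7 27.3% were called lower. The rise of MCM6 was lost in several alternative runs, and the level of TYMS is uncertain, as given above. Line, senescence inducer and count table differ together between the Huh7 and set 2 effects and cannot be told apart. Whether the hairpin differs as well is not given.

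The order of the members by level per kilobase of exon was led by MCM7 or MCM3 in Huh7 and by PCNA in IMR90. In Huh7 it was MCM7 (22.7 ± 1.39 CPM per kilobase), MCM3 (19.1 ± 1.59) and PCNA (16.3 ± 2.04) with shTHBD, against MCM3 (43.9 ± 2.58), MCM7 (32.5 ± 0.769) and TK1 (25.7 ± 0.201) in the control. In IMR90 PCNA came first at 21.7 ± 0.0915 in the libraries labelled set 1, 33.6 ± 3.82 in set 2 and 19.7 ± 0.349 in the control. RRM1 and MCM7 followed it in the control at 7.41 ± 0.197 and 7.27 ± 0.540 CPM per kilobase, a difference within their SD (n = 3). In set 2 RRM1 stood at 11.2 ± 0.314 and MCM7 at 4.81 ± 0.397, with FEN1 (5.32 ± 0.440) between them. Members with a mean under 1 CPM numbered 3 in Huh7 shTHBD (TYMS, UHRF1 and E2F2), 0 in the Huh7 control, 6 in the libraries labelled set 1, 9 in set 2 and 9 in the IMR90 control.

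Several members share exon bases with other genes, and reads there could be lost or misplaced because the counting is not stated to use strand. Beside TYMS, the overlap with genes on the opposite strand was 23.6% of exon bases for MCM2, 21.0% for GINS4 with its largest neighbour, 10.9% for GINS3 and 8.9% for MCM7. PRIM1 shared 12.7% of its exon bases with another gene on the same strand. AP4M1, the neighbour of MCM7, fell by 0.47 ± 0.13 in Huh7. It also fell in IMR90, by 0.56 ± 0.098 for set 2 and 0.47 ± 0.098 for the libraries labelled set 1. Processed copies of PCNA, RRM2, TYMS, RFC3, RFC5, FEN1 and ORC1 listed in the tables held at most 13 counts in any library.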

How the data were processed

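RNA of 15 libraries was measured as whole-number gene counts, which the authors deposited in 1 table per line and which entered every test unchanged. The submitters' processing notes name fastp, STAR, featureCounts and the GRCh38 build. The header of the IMR90 table, per the file headers, records featureCounts 2.0.1 and a GENCODE 38 annotation, paired fragments over exons, and no strand option. For Huh7, no source used here gives the counting version or annotation. Samples were grouped by title, with the set number kept as labelled.

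For each line, edgeR 4.0.16 under R 4.3.3 was run with filterByExpr, TMM scaling and the quasi-likelihood test, and p-values were adjusted by Benjamini-Hochberg over all genes tested (threshold 0.05). The 9 IMR90 libraries entered a single fit, and the difference between lines came from a joint fit of symbols found in both tables. SEs are approximate: each is the size of the log2 fold change divided by the root of F. Common biological variation (BCV) came to 3.13% (IMR90), 8.20% (Huh7) and 5.48% (joint). CPM uses library totals, and the floor of detection is 3 counts, for counting error only. The fits were tested on simulated data.

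The members and gene lists were chosen with earlier results of these data known. Library values are printed for the MCM2-7 subunits, PCNA, CDC6, RRM2, TYMS, E2F1 and any member called with at least a 2-fold change within a line. Genes of other lists are named if called with at least a 2-fold change and a mean of at least 2 CPM, at most 4 per list and direction. Others, named for a count of 5 or fewer, and the library values of RRM1, GINS1, PRIM1 and RFC5 were added after their values were seen. Alternatives covered scaling (DESeq2 1.42.0, upper quartile, totals), tests (DESeq2, limma 3.58.1 voom), filters, a replicate block, each library left out and, added after seeing the data, no libraries labelled set 1. Promoters came from the RefSeq table of GRCh38.p14. The values of 1 gene of the nucleotide supply list are not reported here.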

Additional observations from a re-analysis of the deposited data

Results flagged for a closer look

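By the test of the difference of effects in the joint fit, the effect labelled shTHBD differed between Huh7 and IMR90 set 2. A lower log2 fold change in Huh7 than in set 2 was found for 31 of the 37 replication genes. Of all genes, 44% were called in this test, 21.2% as lower. Without MCM10, PRIM1 and E2F2, which had too few counts in IMR90, 28 of 34 members were lower. Line, senescence inducer and count table cannot be told apart in this difference. THBD had too few counts in Huh7 to show a fall. Of the 11 members whose test was looked at one by one, 8 differed. TYMS had a difference of effects of −3.53 on the log2 scale, MCM5 of −2.26 and MCM2 of −1.30. PCNA differed by −1.20, CDC6 by −1.05, MCM3 by −0.82, MCM6 by −0.59 and E2F1 by −0.54. No group had the 4 libraries that the search for single outlying values needs.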

How the results depend on the processing

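No member changed direction as a called value under any alternative run. The count of called members stayed within 1.5 times that of the report in each. Leaving out each library in turn gave 10 to 13 members called in the libraries labelled set 1, 17 to 20 in set 2, 18 to 21 between the sets, 36 to 37 in Huh7 and 29 to 32 between the lines. With the replicate number as a block (replicate block), 11 members were called in the libraries labelled set 1, 19 in set 2, 21 between the sets, 37 in Huh7 and 30 between the lines. Replicates of the same number did not deviate together (correlations of −0.0259 to 0.0225 in IMR90 and −0.0524 to −0.0158 in Huh7), so the numbers are not taken as pairs. Without the libraries labelled set 1, 19 members were called in set 2 and 31 between the lines. Of the values recomputed for single members, 3 of 518 lost their call in Huh7 and 7 of 360 in set 2. Losses were 10 of 272 in the libraries labelled set 1, 16 of 391 between the sets and 15 of 816 between the lines. Outside Huh7, these totals include some members not called in the report, which had no call to lose. TK1, POLA1 and FEN1 between the sets were among the lost calls, and 13 values gained a call in the libraries labelled set 1. On TMM library sizes the summed level of the members was 316 CPM in the libraries labelled set 1, 258 CPM in set 2 and 1290.1 CPM in the Huh7 control; the scaling itself gives this shift. Low counts limit MCM10, PRIM1 and E2F2 in IMR90, which had at most 12 counts in a library.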
